A study of Rattus norvegicus with 2 samples.

Results

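The stratified epithelial keratins are intermediate filament proteins of layered epithelia such as skin, oral mucosa and the basal layer of the mammary duct. The set listed here held 8 rat genes, Krt1, Krt5, Krt10, Krt13, Krt14, Krt15, Krt16 and Krt17. Members were the gene probes whose transcript identifier belongs to one of these genes in the RefSeq rat annotation. This found 7 of the 8 genes, among 15159 genes with a named probe, with 1 probe each. No probe was matched to Krt10, and it is not analysed here. Each of the 7 probes was printed at 2 spots per array, and 0 of these spots carried an outlier flag.

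RNA came from RMT-1 clone E4 cells, a rat mammary tumour line, in serum-supplemented culture. One array held RNA of cells transiently transfected with an siRNA against Pla2g4c, a cytosolic phospholipase A2, and the other held RNA of cells transfected with a negative control siRNA. The line is a single clone, and both groups share that background and the transfection. Each transfection had 1 array, so differences have no replicate check and could not be tested, and each ± below is the scanner software's error of a log2 difference, a technical error that leaves out the spread between cultures. Going by its title, the series is concerned with apoptosis when Pla2g4c is repressed, and the arrays show which transcripts differed between the transfections. No probe was matched to Pla2g4c, so the knockdown could not be read from its target.

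Keratin filaments are built from pairs of 1 acidic (type I) and 1 basic (type II) chain. Krt5 and Krt14 are the pair of the basal layer, where Krt15 is a further type I chain, and in the mammary gland this pair marks basal and myoepithelial cells. Krt1 and Krt10 replace them in the spinous layers of skin. Krt13 is the type I chain of non-cornified mucosa, where it pairs with Krt4, and Krt16 and Krt17 pair with Krt6 chains and are induced in wounded or activated epithelium.

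Of the 7 keratins, 6 were lower and 1, Krt15, was higher in cells given the Pla2g4c siRNA, where 51% of all measured named genes were lower and 49% higher. Krt13 had the lowest difference, 7.64-fold lower, followed by Krt1 (3.44-fold), Krt5 (3.29-fold), Krt17 (3.09-fold), Krt16 (2.66-fold) and Krt14 (1.96-fold), and Krt15 was 1.64-fold higher. All 7 were well above background on both arrays, so none entered through 1 array alone. At least 2-fold lower were 5 of the 7, beside 3.05% of the 9026 measured named genes, and at least 2-fold higher were 0 of the 7, beside 2.91%. The median difference of the 7 keratins was -1.63, beside -0.01 over all measured named genes. In bulk RNA of a culture, fewer cells expressing a keratin and less keratin RNA per cell cannot be told apart.

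**Figure D1:**
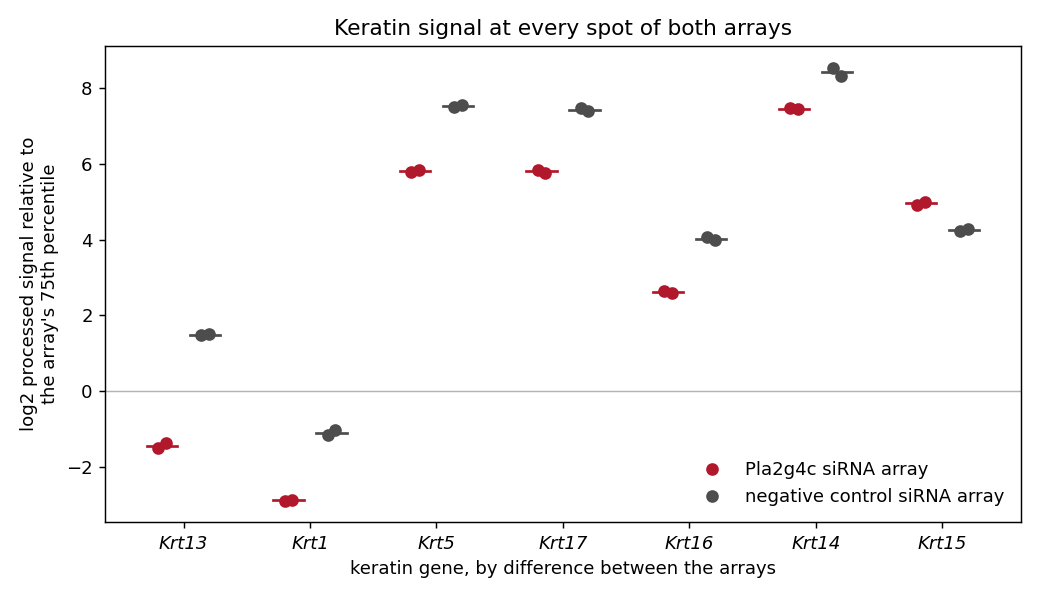
Signal of 7 keratins at each of their 2 spots on the Pla2g4c siRNA array (red) and the negative control siRNA array (grey). The vertical axis is log2 of the processed signal relative to the array's 75th percentile, and horizontal lines are means of 2 spots. The spots of the Pla2g4c siRNA array lie below those of the control array for 6 genes and above them for Krt15.

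Signals below are given as log2 of the processed spot signal relative to the 75th percentile of gene spots on the same array, which was 1105 in Pla2g4c siRNA cells and 852 in control cells. Levels of different probes are not set against each other, since probes differ in how they bind. Differences are Pla2g4c siRNA minus control.

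Of the basal layer chains, Krt5, the type II partner, read 5.79 and 5.85 at its spots in Pla2g4c siRNA cells and 7.51 and 7.57 in control cells. Its difference was -1.72 ± 0.20, and the same position on both arrays gave -1.71 and -1.72. Krt14, the type I partner, read 7.48 and 7.44 in Pla2g4c siRNA cells and 8.55 and 8.31 in control cells, a difference of -0.97 ± 0.20. Both genes were lower at every spot, and the control spots of Krt14 lay 0.24 apart, the widest spot spread among the keratins. Krt15, the further type I chain, read 4.92 and 5.01 in Pla2g4c siRNA cells and 4.23 and 4.27 in control cells. It was higher at both spots, with a difference of 0.71 ± 0.20, and 93.9% of the measured named genes had a lower difference.

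Set against each other, the basal chains therefore differed within the same pair of arrays. The difference of Krt5 minus that of Krt14 was -0.75 ± 0.29, a value that a change of the scaling constant cannot move, and it was -0.72 under quantile normalization, -0.85 under cyclic loess and -0.78 under normexp background correction. The difference of Krt15 minus that of Krt14 was 1.68 ± 0.29, and that of Krt15 minus that of Krt5 was 2.43 ± 0.29. These pairs were chosen after their values were seen, so the values are a description. On these 2 arrays the basal keratins were apart by more than their technical error.

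Krt1, the type II chain of the spinous layers, read -2.89 and -2.86 in Pla2g4c siRNA cells and -1.17 and -1.02 in control cells. Its difference was -1.78 ± 0.21, or -1.51 under normexp background correction. Its processed signals were 149 and 152 on the Pla2g4c siRNA array, against 379 and 420 on the control array. It was thus below the 75th percentile of its array in both transfections, and well above background in both. Its type I partner Krt10 gave no value here, so the pair could not be compared.

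Krt13, the type I chain of non-cornified mucosa, read -1.502 and -1.38 in Pla2g4c siRNA cells and 1.49 and 1.499 in control cells. Its difference of -2.93 ± 0.20 ranked 2 from the lowest among the 9026 measured named genes, and was -2.72 under normexp background correction. The processed signals were 390 and 425 on the Pla2g4c siRNA array, against 2391 and 2407 on the control array. Its usual partner Krt4 did not rise well above background in either transfection.

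The chains of activated epithelium were both lower. Krt16 read 2.64 and 2.58 in Pla2g4c siRNA cells and 4.06 and 3.98 in control cells, a difference of -1.41 ± 0.20. Krt17 read 5.85 and 5.77 in Pla2g4c siRNA cells and 7.48 and 7.39 in control cells, a difference of -1.63 ± 0.20. The difference of Krt16 minus that of Krt17 was 0.21 ± 0.29, within the technical error, and -0.22 under quantile normalization and -0.01 under cyclic loess. Krt6c, a type II chain of the Krt6 group with which they pair, was also lower, at -1.91 ± 0.20, and its 3 probes, with 1 spot each, gave -2.10, -2.01 and -1.62. The difference of Krt6c minus that of Krt16 was -0.50 ± 0.29, or -0.26 under quantile normalization and -0.37 under cyclic loess. Against Krt17 it was -0.28 ± 0.29, or -0.48 under quantile normalization and -0.38 under cyclic loess. Krt14, Krt16 and Krt17 are close relatives, as are the Krt6 copies, and binding of one transcript to the probe of another was not tested.

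Every spot of the Pla2g4c siRNA array lay below every control spot for 6 of the 7 keratins, and every spot lay above for 1 of the 7. Among the 7448 named genes with at least 2 spots a probe, 38% were lower at every spot and 37.9% were higher at every spot. Separation of the spots alone was therefore common on these arrays, and the size of the difference is what the keratins have to be read by. By size, 4 of the 7 ranked within the lowest 1% of measured named genes (Krt13, Krt1, Krt5 and Krt17). Krt16 had 1.07% of the genes below it and Krt14 3.38%.

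**Figure D2:**
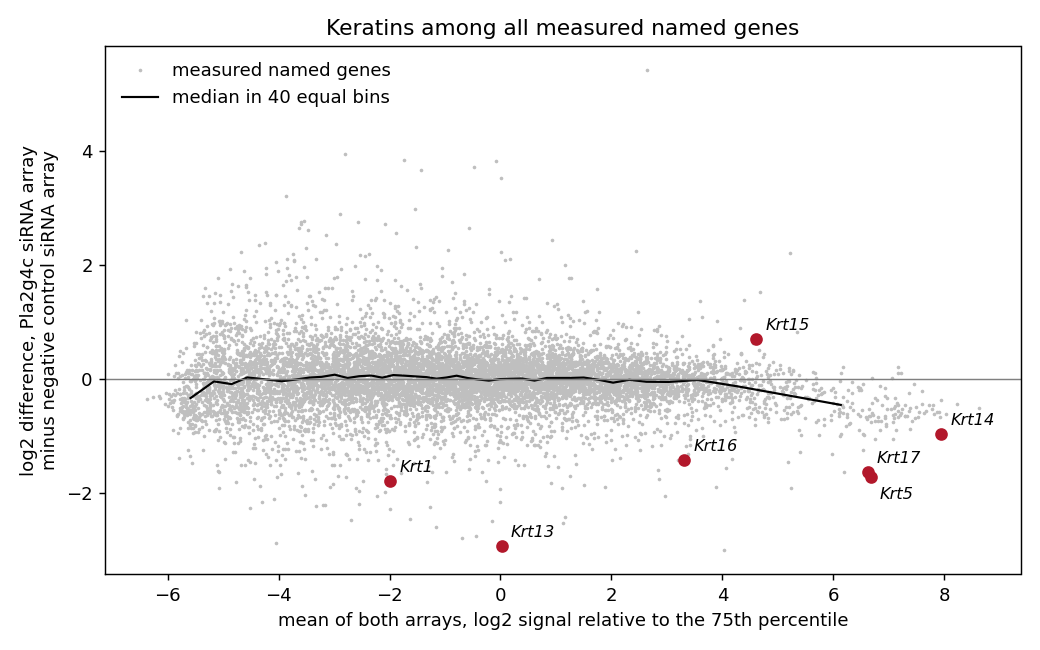
Difference between the arrays (vertical axis, log2) against the mean log2 signal of both arrays relative to the 75th percentile (horizontal axis) for 9026 measured named genes (grey) and 7 keratins (red). The line joins medians in 40 bins of equal size. The brightest genes lie below 0 as a group, and Krt5 and Krt17 lie below most of them.

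The signal level moved with the difference on these arrays. In the brightest 1% of measured named genes, which were 91 genes and included Krt5, Krt14 and Krt17, the median difference was -0.58, with quartiles of -0.68 and -0.44, and 86 of the 91 were below 0. Within these 91 genes Krt5 had the lowest difference, Krt17 ranked 2 and Krt14 ranked 7 from the lowest, and 5 of the 91 were at least 2-fold lower. Under quantile normalization, where the median of these 91 genes was -0.04, Krt5 differed by -1.19, Krt17 by -1.09 and Krt14 by -0.47. Under cyclic loess, where it was -0.15, Krt5 differed by -1.34, Krt17 by -1.26 and Krt14 by -0.49. Krt15, which was not among these 91 genes, was higher, at 0.97 under quantile normalization and 0.94 under cyclic loess. The scanner software's saturation flag was set for 0 gene spots on either array, and saturation of probe binding was not tested.

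**Figure D3:**
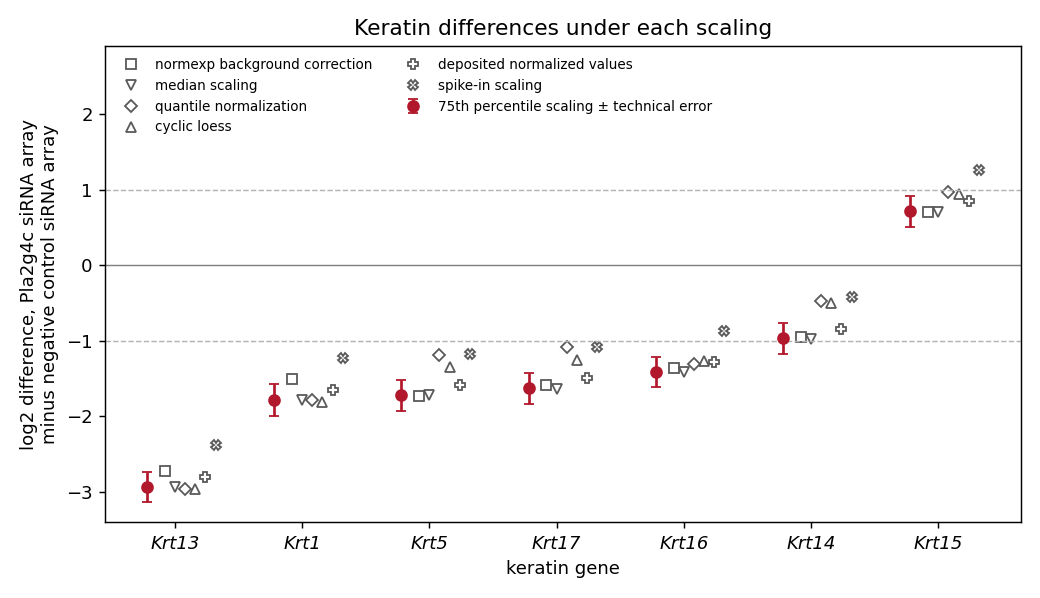
Difference of each keratin (vertical axis, log2) under 75th percentile scaling, with its technical error (red), and under 6 other treatments of the signal (open symbols). Dashed lines mark a 2-fold difference. The 6 keratins below 0 stay below 0 and Krt15 stays above 0 under each, and Krt16 passes above the lower dashed line under spike-in scaling.

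Krt1, Krt5, Krt13 and Krt17 were at least 2-fold lower under all 10 settings tried, and Krt16 under 9 of the 10. Of these settings, 3 leave the keratin values as they are, since each keratin had 1 probe with signal and no outlier flag. Krt14 was below 0 in all 10, between -0.97 and -0.42, and at least 2-fold lower in 0 of them. Krt15 was above 0 in all 10, between 0.70 and 1.26. Scaling to the 7 spike-in RNAs moved the median of all measured named genes to 0.54, and the deposited normalized values moved it to 0.12. Read relative to the median of all genes under the same setting, Krt14 ranged from -0.96 to -0.49 and Krt15 from 0.72 to 0.95. The number of genes at least 2-fold lower and higher was 275 and 263, against 190 and 369 in the deposited normalized values and 68 and 1186 under spike-in scaling, so that each direction here is relative to the bulk of the genes.

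The keratin genes lie in gene clusters, the type I genes on chromosome 10 and the type II genes with Krt18 on chromosome 7 of the RefSeq annotation. Krt13, with the lowest difference, and Krt15, with the only difference above 0 among the 7, are direct neighbours. After Krt15 along chromosome 10 comes Krt19, a chain of simple and ductal epithelium, at -0.30 ± 0.21 (0.25 under spike-in scaling). Next is Krt9, a chain of palm and sole skin, at -0.92 ± 0.22 (-0.70 under normexp). Then follow Krt14 at -0.97, Krt16 at -1.41 and Krt17 at -1.63. The protein-coding gene Ka11 lies between Krt14 and Krt16 and was left out, since only symbols starting with Krt were taken. On chromosome 7, Krt5 and Krt6c lie on either side of Krt6a, and Krt1 lies between Krt2 and Krt77. Krt2 was not well above background in either transfection, and Krt77 was above background in control cells only, at least 1.68-fold lower. Each "at least" divides the value on the array with signal by a floor for the other array, which is the weakest signal that passed its background filter or the probe's own reading, whichever was greater.

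**Figure D4:**
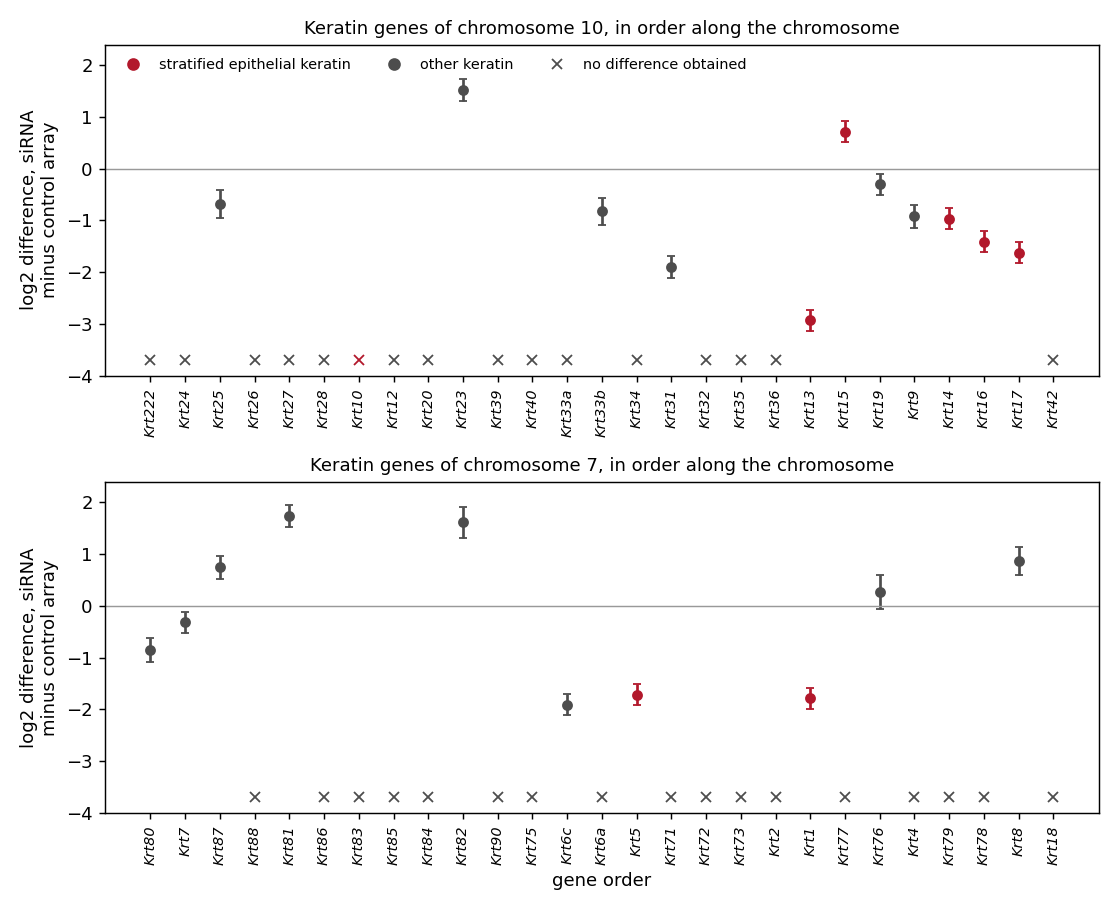
Difference between the arrays (vertical axis, log2, with technical error) for genes with a Krt symbol in their order along chromosome 10 (top) and chromosome 7 (bottom). Red marks the stratified epithelial keratins, grey the other keratins, and crosses genes for which no difference was obtained. Krt15 lies above 0 between Krt13 and Krt19, which lie below it.

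Promoter sequences, from the RefSeq table of build GRCr8, were found for 2 of the 8 listed keratins, Krt5 and Krt10, and the sequence of Krt5 is shown because it is the only one with a measured difference. That of Krt6c, the lower type II neighbour of Krt5, is shown beside it. Each is the 150 bases before the annotated start, read 5′ to 3′ on the gene's strand, the minus strand of chromosome 7, at chr7:134730570-134730719 for Krt5 and chr7:134682754-134682903 for Krt6c. Capitals mark matches to the motifs searched.
Krt5: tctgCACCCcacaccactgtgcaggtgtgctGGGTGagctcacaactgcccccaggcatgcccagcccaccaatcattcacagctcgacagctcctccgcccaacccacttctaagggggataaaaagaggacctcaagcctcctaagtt
Krt6c: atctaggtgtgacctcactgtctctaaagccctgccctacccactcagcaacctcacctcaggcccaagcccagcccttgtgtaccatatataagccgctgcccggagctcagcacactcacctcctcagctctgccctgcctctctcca

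The 4 motifs were the TATA box TATAAA, the AP-1 motif TGANTCA, the AP-2 motif GCCNNNGGC and the KLF motif CACCC, each on both strands of the 250 bases before the start. Krt5 held CACCC 2 times, once on each strand, starting 146 and 119 bases before the start, and none of the other 3 motifs. Krt6c held none of the 4 in that window. Only these letters were searched, so near matches, such as tatataa in Krt6c and ataaaa in Krt5, were not counted. Of 27457 promoters of the same length, 49.4% held CACCC, 13.1% TATAAA, 6.36% TGANTCA and 13.0% GCCNNNGGC. A match describes letters and is not a binding site.

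Among the 37 other keratins with a probe, 14 were measured, 2 had signal above background in Pla2g4c siRNA cells only, 2 in control cells only and 19 in neither. Of the 14, 2 were at least 2-fold lower and 3 at least 2-fold higher, beside 3.05% and 2.91% of all measured named genes. The median difference of the 14 was -0.31, beside -0.01 over all measured named genes. Beside Krt6c, the lower one was Krt31, a hair keratin, at -1.90 ± 0.21, or -1.43 under normexp background correction. The higher ones were the hair keratins Krt81 (1.74 ± 0.21) and Krt82 (1.61 ± 0.30) and the type I chain Krt23 (1.52 ± 0.22). These 3 and Krt31 were well above background but dim. Under normexp background correction Krt81 was 1.28, Krt82 0.37 and Krt23 0.83.

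Of the simple epithelial chains, Krt7 differed by -0.31 ± 0.20, or 0.24 under spike-in scaling, and Krt8, which was dim, by 0.86 ± 0.27, or 0.11 under normexp and 1.41 under spike-in scaling. Its partner Krt18 did not rise well above background in either transfection. Krt80 (-0.86 ± 0.24), Krt33b (-0.82 ± 0.26), Krt25 (-0.69 ± 0.27), Krt76 (0.27 ± 0.33, or -0.19 under normexp) and Krt87 (0.74 ± 0.22) differed by less than 2-fold. Krt87 was 0.28 under normexp and 1.29 under spike-in scaling. Under normexp Krt80 was -0.71, Krt33b -0.51 and Krt25 -0.45, and under spike-in scaling they were -0.31, -0.27 and -0.14. With 1 array showing signal, Krt36 was at least 3.02-fold lower, Krt85 at least 2.61-fold higher and Krt20 at least 1.67-fold higher. The keratins as a family thus held differences in both directions, with the stratified chains other than Krt15 on the lower side.

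**Figure D5:**
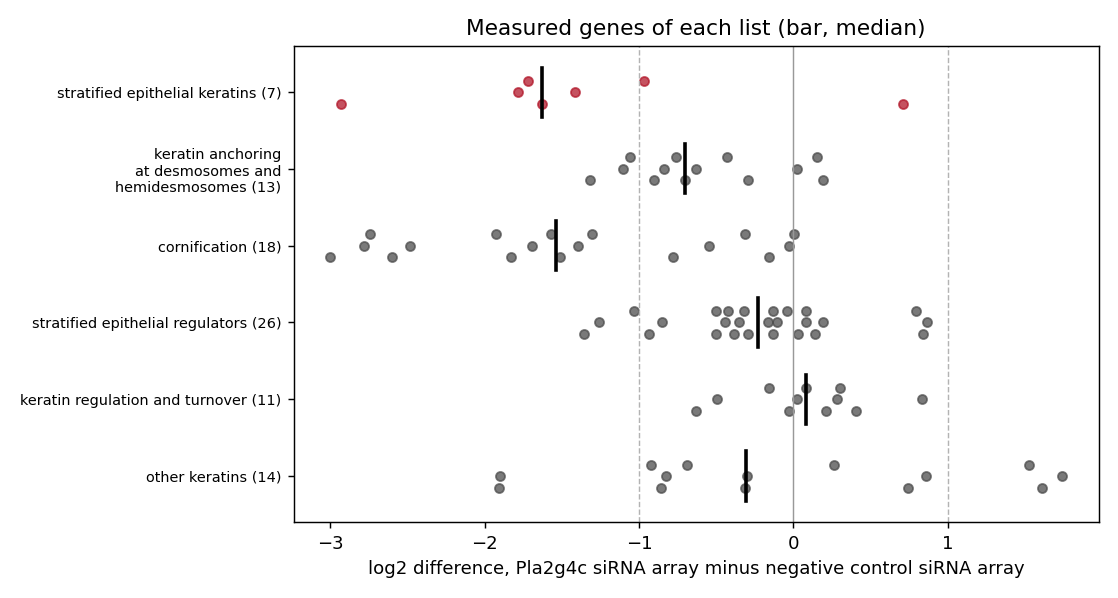
Difference between the arrays (horizontal axis, log2) of each measured gene of 6 gene lists, with the number of genes in brackets and the list median as a bar. Dashed lines mark a 2-fold difference. The keratins and the cornification genes have the lowest medians, -1.63 and -1.54.

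The proteins that anchor keratin filaments at desmosomes and hemidesmosomes had a median difference of -0.70 over 13 measured genes of 20 listed. Of these, 3 were at least 2-fold lower and 0 at least 2-fold higher, beside 3.05% and 2.91% of all measured named genes. The 3 lower ones were Jup (-1.32 ± 0.20), the plaque protein plakoglobin, and the desmosomal cadherins Dsg3 (-1.10 ± 0.21) and Dsc3 (-1.06 ± 0.21). Under normexp Dsg3 was -0.95 and Dsc3 -0.81, and under spike-in scaling Jup was -0.77, Dsg3 -0.55 and Dsc3 -0.51, all under 2-fold. The highest were the plaque protein Pkp2 (0.19 ± 0.20), the tetraspanin Cd151 (0.16 ± 0.20) and the laminin chain Lamb3 (0.03 ± 0.20). Under spike-in scaling the median of this list was -0.15, with that of all genes at 0.54.

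Cornification genes, which act in the last step of the differentiation that the keratins accompany, had a median of -1.54 over 18 measured genes of 37 listed. Of these, 12 were at least 2-fold lower and 0 at least 2-fold higher, beside 3.05% and 2.91% of all measured named genes. The list was drawn up with the low values of some of its genes known. The lowest were Ly6d (-2.999 ± 0.20), a surface protein of stratified epithelia, the skin protease Klk7 (-2.78 ± 0.20) and the envelope gene Lce1f (-2.74 ± 0.20). The highest were the protease inhibitor Cstb (0.01 ± 0.20), Scel (-0.03 ± 0.21), a protein of the cornified envelope, and Tgm1 (-0.16 ± 0.20), the transglutaminase that cross-links it. Under spike-in scaling Scel was 0.52 and Tgm1 0.39, with the median of all genes at 0.54.

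Of the transcription factors and Notch pathway genes that control stratified epithelium, 26 of 32 listed were measured, with a median of -0.23. Among the 26, 3 were at least 2-fold lower and 0 at least 2-fold higher, beside 3.05% and 2.91% of all measured named genes. Klf4 (-1.36 ± 0.20), a factor of differentiating epithelium, Maf (-1.26 ± 0.22), a factor of late differentiation, and the Notch target Hes1 (-1.03 ± 0.21) were lowest. Under normexp Maf was -0.78 and Hes1 -0.76, and under spike-in scaling Klf4 was -0.81, Maf -0.71 and Hes1 -0.48, all under 2-fold. The highest were Ets1 (0.86 ± 0.23), the hedgehog factor Gli1 (0.84 ± 0.22) and the AP-1 subunit Fosl1 (0.79 ± 0.20). Ets1 and Gli1 were dim, and under normexp Ets1 was 0.25, Gli1 0.32 and Fosl1 0.71. Under spike-in scaling Ets1 was 1.41, Gli1 1.39 and Fosl1 1.34, all above 2-fold, with the median of all genes at 0.54. Tp63, the master factor of the basal layer and a regulator of Krt5 and Krt14, differed by -0.13 ± 0.20 as the mean of 2 probes that disagreed, the brighter at -0.54 ± 0.20 and the other at 0.28 ± 0.20, and by 0.42 under spike-in scaling. It was named after its value was seen, and its direction was not settled. The median of this list was 0.32 under spike-in scaling, below that of all genes under the same scaling.

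Genes of keratin phosphorylation, solubility and turnover had a median of 0.08 over 11 measured genes of 20 listed. Among the 11, 0 were at least 2-fold lower and 0 at least 2-fold higher, beside 3.05% and 2.91% of all measured named genes. Trim16, a ubiquitin ligase (-0.63 ± 0.25), the chaperone-linked ligase Stub1 (-0.49 ± 0.20) and the keratin-binding Tchp (-0.16 ± 0.21) were lowest. The 14-3-3 protein Ywhaz (0.83 ± 0.20), the kinase Mapkapk2 (0.41 ± 0.20) and Cib1 (0.30 ± 0.20) were highest. Trim16 was dim, and under spike-in scaling Trim16 was -0.08, Stub1 0.05, Tchp 0.39 and Ywhaz 1.38, the last above 2-fold.

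As a check of the cell type, 5 of 6 epithelial markers and 7 of 8 basal and myoepithelial markers were measured on both arrays. The epithelial ones were Epcam (1.03 ± 0.20), Cldn4 (0.09 ± 0.20), Ovol2 (0.08 ± 0.20), Esrp1 (-0.34 ± 0.20) and Cdh1 (-0.63 ± 0.20). Their median difference was 0.08. Their summed signal, in units of the 75th percentile, was 16.5 in Pla2g4c siRNA cells and 17.5 in control cells. For luminal mammary cells 4 of 6 markers were measured, with a median difference of -0.06. Of the basal markers that are not keratins, Acta2 differed by 0.37 ± 0.22, Myh11 by 0.39 ± 0.27 and Tp63, given with the regulators, by -0.13 ± 0.20. Acta2 was dim, at a mean of -3.88 relative to the 75th percentile, and the error of Myh11 was as wide as that of the dim Krt8. The values of Acta2 and Myh11 under other settings are not given here, so their direction was not settled. Of markers of other cells, 2 of 6 for fibroblasts, 2 of 5 with a probe for leukocytes and 1 of 4 with a probe for endothelium were measured on both arrays, and Ptprc, Dcn and Pecam1 were not well above background on either. The summed signal of the fibroblast markers, in units of the 75th percentile, was 0.387 in Pla2g4c siRNA cells and 0.352 in control cells. That of the leukocyte markers was 0.703 on the Pla2g4c siRNA array, against 0.884 on the control array, and that of the endothelial markers was 0.0714 in Pla2g4c siRNA cells, against 0.0908 in control cells. For the luminal mammary markers, which include Krt7, Krt8 and Krt19, it was 19.8 in Pla2g4c siRNA cells and 24.6 in control cells. That of the basal markers was 327 in Pla2g4c siRNA cells and 734 in control cells. Nearly all of this sum is the signal of Krt5, Krt14, Krt15 and Krt17, so it repeats the keratin values and is no separate check. The part of these cell types in the keratin differences was not tested.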

How the data were processed

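Per the labels, Cy3-labelled RNA of RMT-1 cells was read on Agilent rat arrays with 1 colour, 1 array for each transfection. The deposited scanner files give linear spot intensities, produced by the authors in Agilent Feature Extraction 10.10 (submitters' processing notes). Background subtraction and detrending had been applied to the processed signal, and no normalization between arrays, per the file headers. The deposited outlier and background flags (other values, 0 or 1) were used as they stand. The authors' deposited normalized intensities equal the processed signal times 1.499 in Pla2g4c siRNA cells and 1.77 in control cells, as computed from the values, and the sources used here do not say why.

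In the Pla2g4c siRNA array 63.1% of gene spots were well above background and 381 had outlier flags, against 61.9% and 466 in the control array. Precision is limited by the number of arrays. Main values were log2 processed signal minus the 75th percentile of gene spots on that array. Flagged spots were dropped, spots averaged per probe, and only probes well above background at all spots of both arrays were used (16840 of 30367). The software's error of each signal was averaged over spots without reduction and combined over both arrays. RefSeq transcripts gave symbols to 18006 probes, and measured probes were averaged per gene. No test was made, and 2-fold differences were counted.

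Named genes were all listed keratins, every measured other keratin, and up to 3 genes at each end of every other list. The members and lists were chosen with earlier results of these data known. Alternatives were normexp (offset 50, median spot signal), median scaling, quantile normalization, cyclic loess, the deposited values, dim probes let in, flagged spots kept, the brightest probe per gene, and thresholds of 1.5-fold and 3-fold. Scaling to 7 spike-in RNAs was chosen after seeing the data. Software was Python 3.11.15 (matplotlib 3.10.9, pandas 2.3.3, numpy 2.4.6) and limma 3.58.1 in R 4.3.3, tested on simulated data.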

Additional observations from a re-analysis of the deposited data

How the results depend on the processing

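The median difference of the 7 keratins was -1.63 and moved to -1.19 under quantile normalization, -1.27 under cyclic loess and -1.08 under spike-in scaling. The number of keratins at least 2-fold higher was 0 and became 1, Krt15, under spike-in scaling and at a threshold of 1.5-fold. Of all named genes, 275 were at least 2-fold lower and 263 at least 2-fold higher. These counts were 154 and 116 under normexp, 765 and 539 without the filter on dim probes, 68 and 1186 under spike-in scaling, 929 and 784 at 1.5-fold, and 65 and 85 at 3-fold. Spike-in scaling moved each list median by construction, to 0.32 for the regulators, -0.15 for the anchoring genes, -0.99 for cornification, 0.24 for the other keratins and 0.63 for keratin regulation and turnover. The cause of the other moves was not tested. None of the 7 stratified keratins changed direction under any alternative. Of the other keratins, Krt7 and Krt19 did under spike-in scaling (0.24 and 0.25) and Krt76 under normexp (-0.19). Genes of the other lists also changed direction under spike-in scaling, among them Stub1, Tchp, Scel and Tgm1. No paired analysis was possible because each group holds 1 array, and no array could be left out for the same reason. Dim probes limit the other keratins most, of which 19 of 37 were not well above background in either transfection.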
